A study of Homo sapiens with 6 samples.

Results

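The G2/M and mitosis genes described here were chosen by name from a list of 59 gene symbols, and 57 of them were found among the 11846 genes measured in AGS cells. NUSAP1 and PRC1 were not analysed here. All 57 passed the filter on low values (a mean of at least 0.5 FPKM over the libraries), which left 10813 genes for testing. FPKM counts the fragments of a gene per kilobase of its length, scaled to the reads of the library.

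Cells enter mitosis when the CDC25 phosphatases remove inhibiting phosphates, placed by the kinase WEE1, from CDK1 bound to cyclins A and B. The chromosomes are then condensed, captured by spindle microtubules at their kinetochores, held under the spindle assembly checkpoint until all are attached, and separated once the anaphase-promoting complex has marked securin and cyclin B for destruction. Many of these genes are transcribed together late in the cell cycle, through a cell cycle genes homology region (CHR) that binds the MuvB complexes and through CCAAT boxes that bind NF-Y, so that their summed mRNA is commonly read as a measure of proliferation.

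The samples were AGS cells, a line from a human gastric adenocarcinoma, with 3 libraries of ANXA2P1 knockdown and 3 control libraries of scrambled treatment. ANXA2P1 is a processed pseudogene of the annexin gene ANXA2. The level of ANXA2P1 itself was not analysed here, which leaves the knockdown unchecked by its target. The labels name a scrambled shRNA and an ANXA2P1-shRNAp, whereas the methods of the study name CRISPRi-Scramble and CRISPRi-ANXA2P1 (a dead Cas9 fused to the KRAB repressor and led to the gene by a guide RNA), so the reagent is not certain. The labels call the 3 samples of each group biological replicates. The sources used here do not say whether both groups were grown and sequenced at the same time, and such a batch and the knockdown cannot be told apart.

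The libraries held between 19010940 and 22911995 recovered reads. Of 9 epithelial markers, all were measured, with EPCAM at 229 to 256 FPKM, KRT8 at 396 to 479 FPKM and CDH1 (E-cadherin) at 1.89 to 2.46 FPKM. Of 12 stomach markers 7 were measured, of 12 fibroblast and endothelial markers COL1A1 and PDGFRA, each under 2 FPKM, and of 10 blood cell markers LYZ, which stomach epithelium also makes. No 2 libraries of a group agreed within the sampling noise of their reads (chi-square per degree of freedom of 2.86 to 36.4). Knockdown library 1 stood apart from the others, and the values of the roles, the lists and the members it moved most are also given without it.

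The promoters of the members carried the elements named above. RefSeq promoter sequence (GRCh38.p14, 250 bases before to 50 after the start of transcription) was matched for 49 of the 57 members. The CHR letters TTTGAA, read on both strands, were present in 36 of these 49 promoters (73.5%), against 9.48% of the 8815 matched promoters of all tested genes and 15.4% of the 27305 promoters in the table. CCAAT, also on both strands, was present in 36 (73.5%), against 37.4% of the tested genes and 35.7% of the table. Both elements were found in 28 members (57.1%), against 4.10% of the tested genes, and 22 members (44.9%) had at least 2 CCAAT boxes, against 14.4%. The 46 CHR matches had a median first base at -28.5 from the start, and the 79 CCAAT matches one at -71. By contrast the E2F letters TTCCCGC were found in 6 members (12.2%), against 10.8% of the tested genes. A match describes letters only, and no binding was measured.

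**Figure D1:**
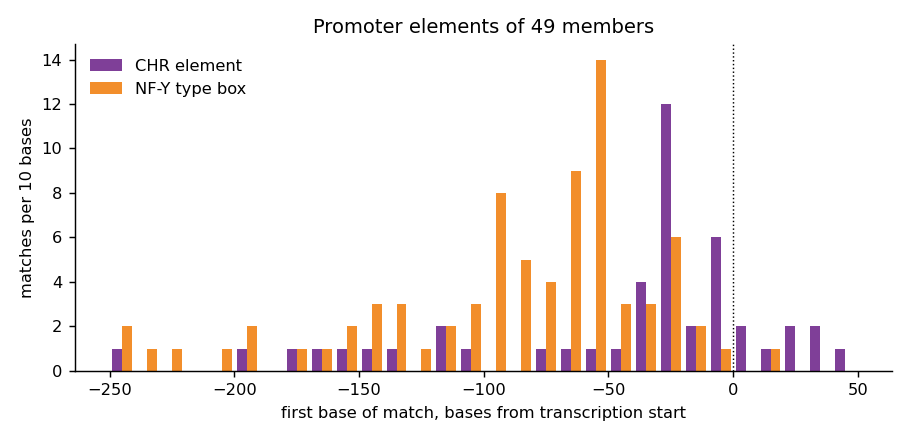
Matches to the CHR element and to the NF-Y type box in the promoters of 49 members. The x axis is the first base of the match relative to the start of transcription in bases and the y axis is the number of matches per bin of 10 bases. Of the 46 CHR matches 28 lie within 100 bases before the start, as do 55 of the 79 NF-Y type matches.

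The promoters of 5 members show the range of arrangements found. Each line is the 100 bases before the RefSeq start, 5′ to 3′ on the strand of the gene, with the matches to the CHR and CCAAT letters or their reverse complements in capitals. In order they are chr9:89311095-89311194 (plus strand), chr16:23678789-23678888 (plus), chr10:128126424-128126523 (minus), chr3:44761694-44761793 (plus) and chr20:3786851-3786950 (plus), all in GRCh38.p14.
CKS2: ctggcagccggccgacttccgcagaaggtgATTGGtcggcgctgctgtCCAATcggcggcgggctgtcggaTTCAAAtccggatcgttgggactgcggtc
PLK1: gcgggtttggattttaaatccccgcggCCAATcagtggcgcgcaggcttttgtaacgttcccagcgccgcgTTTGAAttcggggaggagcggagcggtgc
MKI67: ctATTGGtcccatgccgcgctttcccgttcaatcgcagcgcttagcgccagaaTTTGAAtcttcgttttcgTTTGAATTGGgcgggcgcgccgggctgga
KIF15: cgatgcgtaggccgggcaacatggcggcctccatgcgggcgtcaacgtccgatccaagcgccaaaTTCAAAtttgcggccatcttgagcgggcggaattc
CDC25B: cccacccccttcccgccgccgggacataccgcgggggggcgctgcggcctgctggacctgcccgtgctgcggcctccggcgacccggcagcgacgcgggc

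CKS2 and PLK1 have a CHR match at -29 with CCAAT boxes before it, at -70 and -52 in CKS2 and at -73 in PLK1. MKI67 has CHR matches at -47 and -29, and the box at -24 overlaps the one at -29. KIF15 has a CHR match at -35 and no CCAAT box in the window, and CDC25B has neither. These 5 genes differed widely in the libraries: relative to the control mean, knockdown library 1 stood at -0.12 on the log2 scale for CKS2, at -0.36 for PLK1, at -1.08 for MKI67, at -0.90 for KIF15 and at -0.16 for CDC25B.

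As a group the members were slightly lower after ANXA2P1 knockdown, but none passed the test and the shift lay mainly in 1 library. The log2 fold change (knockdown over control, limma on log2(FPKM + 0.1)) was negative for 57 of 57 members, against 46.9% of the 10813 genes tested, with a median of -0.18, against 0.010 for all genes. No member passed a limma adjusted p of 0.05 over all genes, where 12 genes (0.111%) passed lower and 2 genes (0.0185%) higher in the knockdown, and the lowest adjusted p of a member was 0.330. At an unadjusted p under 0.05 there were 7 members (12.3%), all lower, namely WEE1, CDC25C, KIF15, CDC25B, NDC80, NUF2 and SPC25. Among all tested genes 640 were lower at that p (5.92%), and 1149 passed it in either direction (10.6%). A limma voom fit on recovered reads gave 8 such members, against 10.7% of all genes in either direction, and called 0 members. The 3 knockdown values lay below all 3 control values in 5 members (8.77%), close to the 9.13% of all genes for which this held, and above them in 0 members, against 9.86% of all genes. Without knockdown library 1 the number of negative members was 33 of 57, against 48.1% of all genes, and the median was -0.027. The median was -0.10 without control library 1, where 0 members had an unadjusted p under 0.05 (6.45% of all genes, in either direction). Without control library 2 it was -0.28, and 15 members had such a p (7.34% of all genes, in either direction). When limma weighted each library by its own spread, knockdown libraries 1, 2 and 3 received weights of 0.188, 3.75 and 0.509. Control libraries 1, 2 and 3 received 1.41, 0.679 and 2.92, so knockdown library 2 and control library 3 counted most. The adjusted p was then passed by 8 of 57 members (WEE1, CDC25B, CDC25C, TTK, NDC80, NUF2, SPC25 and KIF15) and by 1195 of 10813 genes in all. With these weights 15 of 57 members had an unadjusted limma p under 0.05, against 28.5% of all genes in either direction. In bulk RNA fewer cells in G2 and mitosis and less of these mRNAs per cell cannot be told apart.

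**Figure D2:**
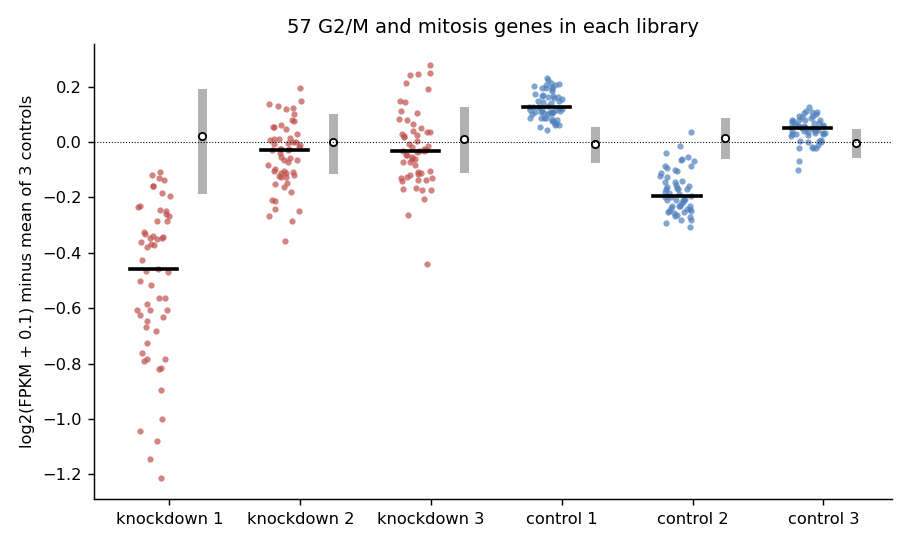
Each point is 1 of the 57 members in 1 library, plotted as log2(FPKM + 0.1) minus the mean of the 3 control libraries, with the knockdown in red and the control in blue. Black lines are the members' medians, and grey bars with white circles are the quartiles and median of all 10813 tested genes. The members' median is -0.46 in knockdown library 1 and -0.20 in control library 2, while the all-gene medians stay between -0.0086 and 0.020.

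The members moved together between libraries of the same group. Their median log2 deviation from the control mean was -0.46, -0.030 and -0.034 in knockdown libraries 1, 2 and 3, against 0.13, -0.20 and 0.050 in control libraries 1, 2 and 3. All 57 members were below the control mean in knockdown library 1, but so were 56 of 57 in control library 2, and 57 of 57 were above it in control library 1. Knockdown library 1 was the lowest of the 6 libraries for 49 members (and for 30.7% of all genes), and control library 1 was the highest for 49 members (11.8% of all genes). The share of reads from the members was likewise lowest in knockdown library 1 and highest in control library 1, with 0.592%, 0.827% and 0.871% in the knockdown and 0.931%, 0.757% and 0.879% in the control. Control library 2 thus held fewer of these mRNAs than knockdown libraries 2 and 3.

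The spread within a group was wide for these genes. The median within-group SD of a member was 0.247 log2 units in the knockdown, against 0.125 for all genes, and 0.172 in the control, against 0.0711. With knockdown libraries 2 and 3 alone it was 0.0735, against 0.0692. Over the 6 libraries the 1596 pairs of members had a median Pearson correlation of 0.86, and 63.2% of pairs were above 0.8, with a lowest value of -0.07. These points share their libraries and their depth, and the correlations are a description.

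Some markers ran against the members across the libraries, and the 3 given in full here were chosen after their values were seen. LYZ (lysozyme) had 343, 175 and 239 FPKM in knockdown libraries 1, 2 and 3, against 182, 374 and 219 FPKM in control libraries 1, 2 and 3. PGC, the precursor of a stomach protease, had 3.44, 1.78 and 2.07 FPKM in the knockdown and 1.76, 3.43 and 2.46 FPKM in the control, and MUC1, an epithelial surface mucin, had 19.5, 13.8 and 14.6 FPKM in the knockdown and 13.4, 16.8 and 16.1 FPKM in the control. In all 3 genes knockdown library 1 and control library 2, the libraries lowest in mitotic mRNA, had the highest values. The same libraries were also the highest for EPCAM, CLDN4, CLDN7, ELF3, TFF1 and, at under 0.5 FPKM, TFF2. The remaining measured markers did not show this. Among them KRT8 (396 FPKM), KRT18 (157 FPKM), KRT19 (508 FPKM) and the gut transcription factor GATA4 (39.2 FPKM) had their lowest value in control library 2. Over the 9 epithelial markers the summed level was 1569 to 1768 FPKM in the knockdown and 1505 to 1598 FPKM in the control, and over the 7 measured stomach markers it was 85.9 to 89.9 FPKM and 80.7 to 85.4 FPKM in the same order. The part of this difference between libraries in the members' values was not tested.

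The regulators of mitotic entry were among the less shifted. The 12 members of this role had a median log2 fold change of -0.16, and their median in knockdown library 1 was -0.31. CKS2, a small CDK-binding subunit and the most abundant member, had 161, 191 and 172 FPKM in knockdown libraries 1, 2 and 3, against 197, 156 and 176 FPKM in control libraries 1, 2 and 3. The groups overlapped fully, and the difference was one of the 3 nearest to 0 (log2 fold change -0.0062, SE 0.102, limma adjusted p = 0.987). CCNB1, cyclin B1, lay at 102 to 116 FPKM in the knockdown and 98.3 to 124 FPKM in the control. CDK1 itself had 23.3 to 31.7 FPKM in the knockdown and 29.9 to 35.5 FPKM in the control, with overlapping groups.

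WEE1 and CDC25B, which act on CDK1 in opposite ways, had separate groups and knockdown libraries that lay close together. WEE1, the kinase that inhibits CDK1 (chr11:9573681-9593457, plus strand, hg38), had 6.70, 6.43 and 6.59 FPKM in the knockdown, against 7.98, 7.81 and 7.10 FPKM in the control. The 3 knockdown libraries lay below every control (log2 fold change -0.21, SE 0.0708, limma adjusted p = 0.330). CDC25B, a phosphatase that activates CDK1 (chr20:3786772-3806121, plus strand), had 44.6, 44.9 and 44.2 FPKM in the knockdown and 51.9, 48.5 and 49.1 FPKM in the control. Again no control reached the knockdown range (log2 fold change -0.16, SE 0.0581, limma adjusted p = 0.379). Its paralog CDC25C had 6.88, 7.79 and 6.82 FPKM in the knockdown against 10.7, 7.62 and 9.80 FPKM in the control, and here control library 2 lay inside the knockdown range (log2 fold change -0.37, limma adjusted p = 0.334). CDC25C was the lowest member in knockdown library 3, at -0.44 log2 units from the control mean.

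**Figure D3:**
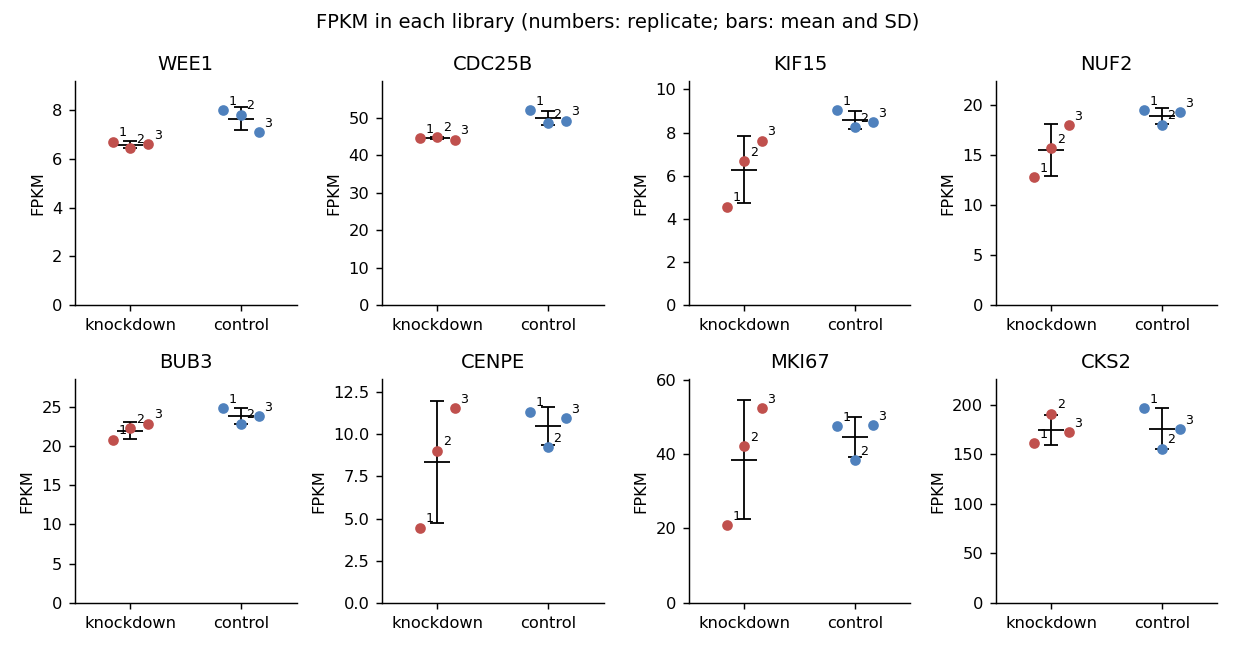
FPKM of 8 members in each library, with the knockdown in red on the left and the control in blue on the right of each panel. Digits beside the points give the replicate, and black marks are the mean and SD of 3 libraries. WEE1 and CDC25B are tight in the knockdown (6.43 to 6.70 and 44.2 to 44.9 FPKM), whereas CENPE and MKI67 spread from 4.45 to 11.5 and from 20.9 to 52.4 FPKM.

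The 3 regulators of transcription and proliferation had a median log2 fold change of -0.21 and a median of -0.51 in knockdown library 1. MKI67, which encodes the Ki-67 protein that coats mitotic chromosomes, had 20.9, 42.2 and 52.4 FPKM in the knockdown, against 47.5, 38.3 and 47.8 FPKM in the control. Knockdown library 1 was the lowest of all and knockdown library 3 the highest of all, so the log2 fold change of -0.30 had an SE of 0.295 (limma adjusted p = 0.754), and without knockdown library 1 it was 0.085. FOXM1, a transcription factor that binds many of these promoters together with MuvB, had 15.2, 21.5 and 20.6 FPKM in the knockdown and 23.8, 18.6 and 23.5 FPKM in the control. Its groups overlapped through control library 2 (log2 fold change -0.21, limma adjusted p = 0.660).

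In the chromosomal passenger complex, which corrects faulty attachments through the kinase AURKB, the 4 members had a median log2 fold change of -0.11. BIRC5, survivin, had 28.6, 34.4 and 30.6 FPKM in the knockdown and 36.1, 26.0 and 32.6 FPKM in the control. The lowest and the highest value were both controls (log2 fold change -0.0086, limma adjusted p = 0.985). CDCA8, borealin, had the lowest p of the complex, with 20.8, 23.9 and 22.7 FPKM in the knockdown and 26.5, 22.3 and 25.2 FPKM in the control (log2 fold change -0.13, limma adjusted p = 0.628).

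The spindle assembly checkpoint genes had a median log2 fold change of -0.19 over 5 members. BUB3, which carries the BUB1 and BUBR1 kinases to the kinetochore, had 20.8, 22.3 and 22.8 FPKM in the knockdown, against 24.8, 22.8 and 23.8 FPKM in the control. Its groups did not overlap, but knockdown library 3 and control library 2 both rounded to 22.8 FPKM (log2 fold change -0.12, SE 0.0649, limma adjusted p = 0.573). BUB1, the most abundant of the 5, had 18.9, 28.61 and 28.997 FPKM in the knockdown and 31.8, 24.5 and 29.5 FPKM in the control. Only knockdown library 1 lay below the control range. MAD2L1, which holds the activator CDC20 in check, had 13.6, 16.9 and 15.6 FPKM in the knockdown and 18.7, 17.5 and 16.8 FPKM in the control (log2 fold change -0.21, limma adjusted p = 0.475). TTK, the MPS1 kinase at the head of the checkpoint, had 9.504, 14.2 and 15.02 FPKM in the knockdown and 18.02, 14.2 and 17.4 FPKM in the control, the third most negative difference of all members (log2 fold change -0.38, SE 0.172, limma adjusted p = 0.489).

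The 4 genes placed under anaphase onset were among the closest to 0, with a median log2 fold change of -0.089. CDC20, the activator of the anaphase-promoting complex, had 74.4, 99.2 and 91.8 FPKM in the knockdown and 106, 75.5 and 93.3 FPKM in the control. Control library 2 was as low as knockdown library 1 (log2 fold change -0.046, SE 0.144, limma adjusted p = 0.932). CDCA3 was counted in this role although it is a mitotic entry factor that is degraded in G1. It had 5.84, 8.53 and 7.69 FPKM in the knockdown and 8.55, 6.10 and 7.86 FPKM in the control (log2 fold change -0.032, limma adjusted p = 0.960). PTTG1, securin, had 33.8, 40.1 and 38.4 FPKM in the knockdown and 49.2, 36.5 and 44.6 FPKM in the control, where again control library 2 lay inside the knockdown range (log2 fold change -0.21, limma adjusted p = 0.577).

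The kinetochore and centromere genes had the most negative median of the 10 roles, -0.31 over 6 members, and 3 of the 7 members with an unadjusted p under 0.05. NDC80, NUF2 and SPC25 are subunits of 1 complex, the rod that joins kinetochores to microtubules. NUF2 had 12.8, 15.7 and 17.99 FPKM in the knockdown, against 19.5, 18.005 and 19.3 FPKM in the control. Its groups did not overlap, although knockdown library 3 and control library 2 all but touched (log2 fold change -0.30, SE 0.117, limma adjusted p = 0.413). NDC80 had 15.5, 19.6 and 21.9 FPKM in the knockdown and 25.4, 21.4 and 25.1 FPKM in the control (log2 fold change -0.35, SE 0.129, limma adjusted p = 0.390), and SPC25, the least read member with 432 to 783 reads, lay at 11.7 to 14.3 FPKM in the knockdown and 13.6 to 18.1 FPKM in the control. For both, control library 2 lay inside the knockdown range. The ratio of NDC80 to NUF2 stayed at 1.21, 1.25 and 1.22 in the knockdown and 1.31, 1.19 and 1.30 in the control.

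The 2 long kinetochore genes behaved differently in each knockdown library. CENPE, a kinesin that carries chromosomes to the metaphase plate, had 4.45, 9.01 and 11.5 FPKM in the knockdown and 11.3, 9.22 and 10.9 FPKM in the control. CENPF, a large protein of the outer kinetochore, had 16.4, 33.6 and 44.1 FPKM in the knockdown and 38.6, 33.4 and 37.1 FPKM in the control. In both genes knockdown library 1 was the lowest and knockdown library 3 the highest of all 6, and their SEs were the widest of the members (log2 fold change -0.43, SE 0.298, limma adjusted p = 0.656 for CENPE and -0.33, SE 0.307, limma adjusted p = 0.749 for CENPF). Without knockdown library 1 the log2 fold changes were -0.034 for CENPE and 0.084 for CENPF. CENPA, the centromeric histone, lay at 13.7 to 17.1 FPKM in the knockdown and 14.3 to 17.4 FPKM in the control.

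The 10 kinesin motors had the lowest median in knockdown library 1, -0.76, and a median log2 fold change of -0.25. KIF15, a motor that helps keep the spindle bipolar (chr3:44761717-44873376, plus strand), had 4.56, 6.67 and 7.61 FPKM in the knockdown, against 9.03, 8.25 and 8.47 FPKM in the control. Every knockdown library lay below every control, and the log2 fold change of -0.47 (SE 0.166, limma adjusted p = 0.363) was the most negative of the members, and without knockdown library 1 it was -0.26. KIF11, which slides spindle poles apart, had 13.7, 22.9 and 24.4 FPKM in the knockdown and 24.6, 19.3 and 24.5 FPKM in the control, so knockdown libraries 2 and 3 lay inside the control range. KIF22, which pushes chromosome arms outwards and had the highest mean level of the motors, had 31.6, 33.4 and 31.1 FPKM in the knockdown and 37.1, 30.3 and 35.3 FPKM in the control (log2 fold change -0.089, limma adjusted p = 0.750). The other 7 motors had log2 fold changes of -0.33 (KIF23) to -0.14 (KIF2C), and in each the groups overlapped.

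Among the spindle-associated proteins TPX2, which activates AURKA on microtubules, had 67.0, 89.6 and 86.8 FPKM in the knockdown and 94.5, 75.6 and 91.0 FPKM in the control (log2 fold change -0.11, limma adjusted p = 0.807). HMMR, a spindle pole protein, had 11.1, 15.9 and 17.1 FPKM in the knockdown and 18.6, 15.4 and 17.9 FPKM in the control (log2 fold change -0.26, limma adjusted p = 0.610). ECT2, which activates RhoA for the contractile ring, had 28.6, 39.3 and 42.7 FPKM in the knockdown and 45.9, 40.6 and 44.5 FPKM in the control (log2 fold change -0.26, SE 0.139, limma adjusted p = 0.552). In all 3 genes knockdown library 1 was the lowest, and the other 5 libraries overlapped between groups.

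Of the genes of chromosome condensation, TOP2A, the topoisomerase that untangles sister chromatids, had 52.5, 84.9 and 98.2 FPKM in the knockdown and 99.8, 85.7 and 92.96 FPKM in the control. SMC2, a core subunit of condensin, had 9.88, 14.4 and 16.1 FPKM in the knockdown and 16.6, 14.8 and 15.8 FPKM in the control. Their log2 fold changes were -0.29 (SE 0.204, limma adjusted p = 0.660) and -0.25 (SE 0.163, limma adjusted p = 0.631), and in both knockdown library 3 lay inside the control range. The condensin partner SMC4 had 11.7 to 21.9 FPKM in the knockdown and 17.1 to 20.3 FPKM in the control.

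**Figure D4:**
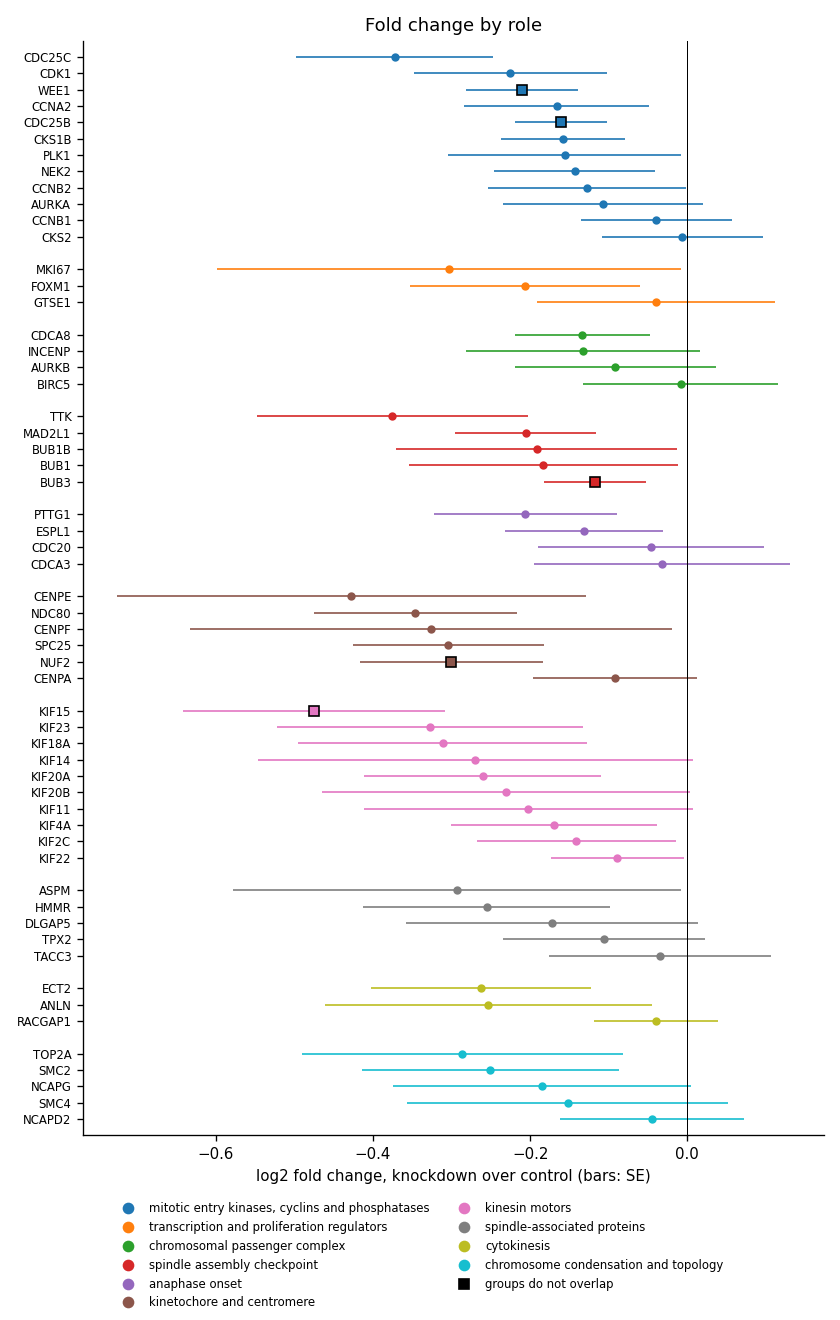
Log2 fold change (knockdown over control) of the 57 members, grouped and coloured by role, with bars of 1 SE from the limma fit. Squares with a black edge are the 5 members whose groups did not overlap. All 57 points lie below 0, from -0.47 (KIF15) to -0.0062 (CKS2), and none passed an adjusted p of 0.05.

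Without knockdown library 1 the medians of the roles lay closer to 0. The median log2 fold change was -0.10 for the kinetochore and centromere genes, -0.079 for the checkpoint, -0.069 for mitotic entry and -0.060 for the kinesins, and it was 0.00051 for cytokinesis, 0.016 for the passenger complex, 0.023 for anaphase onset, 0.046 for condensation, 0.047 for the spindle-associated proteins and 0.085 for the transcription regulators. Those 6 roles thus had no negative median once that library was left out. Among members the value without it was -0.34 for CDC25C, -0.22 for WEE1, -0.22 for SPC25, -0.21 for NDC80, -0.17 for TTK, -0.17 for NUF2 and -0.16 for CDC25B. It was -0.091 for ECT2, -0.066 for HMMR, -0.043 for SMC2 and -0.021 for TOP2A. CDC25C, WEE1 and CDC25B were thus moved little by that library, and CENPE, HMMR, SMC2 and TOP2A were moved to near 0.

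How far a member stood below the control mean in knockdown library 1 went with the length and base composition of its mRNA (GENCODE release 29, principal protein-coding transcript). The members' median in that library was -0.34 for 19 mRNAs of up to 2500 bases, -0.47 for 19 of 2500 to 4000 bases, -0.67 for 11 of 4000 to 6000 bases and -1.02 for 8 longer ones. All tested genes had medians of 0.10, 0.028, -0.036 and -0.15 in the same classes. In knockdown library 3 the order was turned round, with members' medians of -0.11, -0.018, 0.037 and 0.22, against -0.035, 0.013, 0.039 and 0.091 for all genes. Across the 57 members the Spearman correlation of length with the deviation was -0.61 in knockdown library 1 and 0.57 in knockdown library 3, against -0.35 and 0.27 across 10617 genes, as a description. The lengths behind the deposited FPKM values followed these annotated lengths only in part (Spearman correlation of 0.72 across tested genes). Some members may therefore fall in another length class by those lengths.

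The GC content of the mRNA ran the other way in knockdown library 1. Members of up to 40% GC had a median of -0.68 there and those above 50% GC one of -0.28, against -0.22 and 0.14 for all genes. The Spearman correlation of GC with the deviation was 0.67 across the members in knockdown library 1 and -0.32 in knockdown library 3. Across 10617 genes it was 0.60 and -0.16. The members had a median GC of 43.2% (34.2% for KIF20B to 60.1% for INCENP), against 48.9% for all genes, and a median length of 3201 bases, against 3143 bases. A smooth trend on length and GC was fitted over all genes to their deviations from their mean over the 6 libraries. It took up 37.8%, 1.02% and 20.8% of the variance of these deviations in knockdown libraries 1, 2 and 3. In control libraries 1, 2 and 3 it took up 10.5%, 7.22% and 2.36%. A trend on GC alone took up 33.1% in knockdown library 1 and 13.5% in knockdown library 3, and one on length alone 15.1% and 13.7%. With this trend removed the members' median was still -0.41 in knockdown library 1, with 56 of 57 below 0, and it was 0.00086 in knockdown library 2, with 28 of 57 below 0, and -0.040 in knockdown library 3, against 0.14, -0.23 and 0.065 in control libraries 1, 2 and 3, while the SD among members in knockdown library 1 was 0.200, against 0.281 before. The median of knockdown library 1 was close to its size before the removal, and the spread between members was smaller. The trend was fitted over all genes, whose correlation with length in that library was weaker than the members' (-0.35 against -0.61). Its removal need not take out the members' own relation to length and GC, and the part of either in the shift was not tested.

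**Figure D5:**
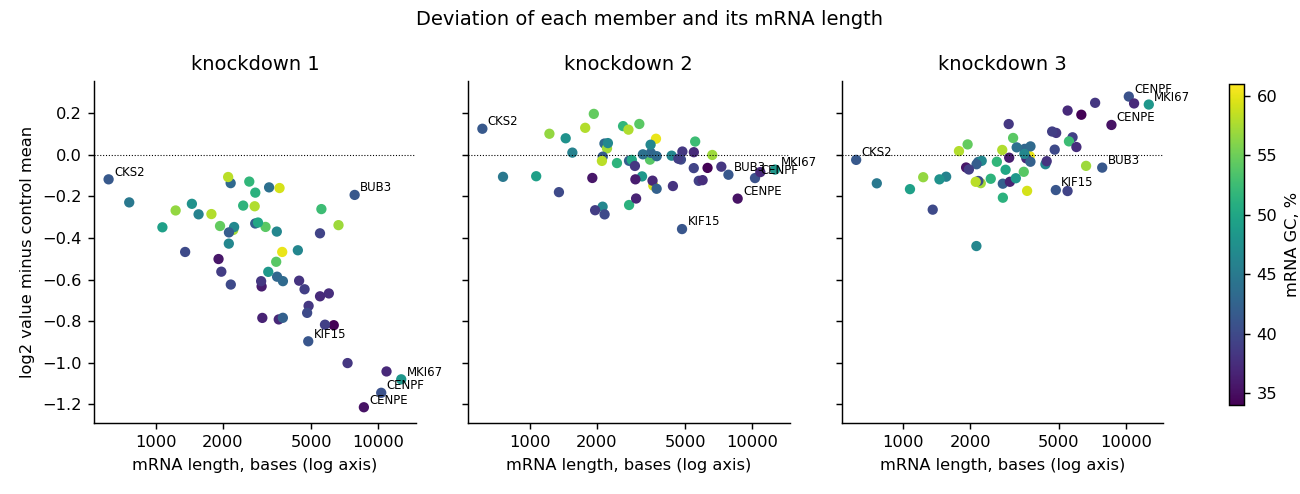
Deviation of the 57 members from the control mean (log2 units) against mRNA length (bases, log axis) in each knockdown library, with points coloured by the GC percentage of the mRNA. In knockdown library 1 the shortest member, CKS2 (613 bases), lies at -0.12 and CENPE (8612 bases) is the lowest at -1.21. Some long members lie higher, among them BUB3 (7828 bases) at -0.19, ESPL1 (6623 bases) at -0.34 and NCAPD2 (5548 bases) at -0.26. In knockdown library 3 long members such as CENPF (0.28) and MKI67 (0.24) lie above the control mean.

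The promoter elements were set beside these values, and the CHR and CCAAT splits ran opposite ways. The 36 members with a CHR match had a median log2 fold change of -0.20 and a median of -0.61 in knockdown library 1, against -0.16 and -0.33 for the 13 without one. The 36 with a CCAAT box had medians of -0.17 and -0.42, against -0.25 and -0.62 for the 13 without one. The sets also differed in median mRNA length, with 3724 bases with a CHR match and 2781 bases without, and 3050 bases with a CCAAT box and 3725 bases without. The part of either element in the values was not tested.

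Other genes of the cell cycle, from lists chosen with earlier results known, gave the following counts. Of 40 other mitotic genes 38 had a negative log2 fold change (median -0.15), with the lowest p for HMGB2, a chromatin protein (log2 fold change -0.27, limma adjusted p = 0.334). Of 31 other kinetochore and checkpoint genes 24 were negative (median -0.13), with the lowest p for CENPQ, of the inner kinetochore (log2 fold change -0.42, limma adjusted p = 0.134). Of 16 cohesin and condensin genes 14 were negative (median -0.12), led by the cohesin subunit RAD21 (log2 fold change -0.27, limma adjusted p = 0.186). In these 3 lists no gene passed the adjusted p, and without knockdown library 1 their medians were -0.038, -0.010 and 0.013.

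The subunits of the anaphase-promoting complex, whose mRNAs are less tied to the cell cycle phase, had no such lean, with 6 of 15 negative, a median of 0.014 and a median of 0.037 in knockdown library 1. Their lowest p was that of CDC27 (log2 fold change -0.28, limma adjusted p = 0.339). Of 15 regulators of G2/M transcription 10 were negative (median -0.059), with the lowest p for the NF-Y subunit NFYB (log2 fold change -0.16, limma adjusted p = 0.448), and of 11 brakes on G2/M 7 were negative (median -0.080), with the lowest p for GADD45B (log2 fold change -0.37, limma adjusted p = 0.295). None of these lists held a called gene. Of 58 genes of G1/S and DNA replication 56 were negative with a median of -0.13, and 1 was called, CCND1, cyclin D1 (log2 fold change -0.59, limma adjusted p = 0.0279). The lean was also seen in genes of the preceding phases, with a median of -0.31 for the G1/S list and -0.46 for the members in knockdown library 1. Without that library the median log2 fold change was -0.059 for the G1/S list, with 39 of 58 negative, 0.048 for the anaphase-promoting complex, -0.044 for the transcription regulators and -0.025 for the brakes.

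Ratios between related members were steady for some pairs only. The ratio of BUB1 to BUB1B was 1.81, 1.80 and 1.77 in the knockdown and 1.76, 1.80 and 1.79 in the control, and that of CCNB1 to CCNB2 was 2.99, 2.78 and 2.83 in the knockdown and 2.66, 2.86 and 2.57 in the control. CDC25B over CDC25C was 6.48, 5.77 and 6.47 in the knockdown and 4.85, 6.36 and 5.01 in the control, with overlapping groups. The ratio of CKS1B to CKS2, the related CDK-binding subunits, was 0.304, 0.280 and 0.303 in the knockdown and 0.319, 0.338 and 0.328 in the control. These groups did not overlap, which held for no other pair compared, AURKA over AURKB and SMC2 over SMC4 included. Among all single genes tested the groups did not overlap in 9.13% (lower in the knockdown) and 9.86% (higher). KIF20A over KIF20B was 4.15, 3.36 and 2.79 in the knockdown and 3.60, 3.38 and 3.38 in the control, with the highest and the lowest value both in the knockdown. The ratios were not tested. The 13 members with pseudogene copies in the annotation, among them CKS1B with 6, can share reads with those copies, and their levels are less certain for that reason.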

How the data were processed

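The authors captured poly(A) RNA on oligo-dT beads and deposited 1 table of FPKM values with a column for each of 6 libraries. The labels' processing notes list Bowtie2 and TopHat as tools and hg38 as the build. The sources used here do not name the counter, annotation, strand setting or any filter, so reads of overlapping and antisense genes may be mixed. Whole reads were recovered from the FPKM steps for 11844 of 11846 genes (99.98%, tolerance 0.001 reads), and on simulated tables for 98.3% of 1500 genes.

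Groups came from the sample titles. Genes averaging 0.5 FPKM or more were fitted with limma 3.58.1 in R 4.3.3 (trend and robust settings) on log2(FPKM + 0.1), 3 knockdown against 3 control libraries, with no covariate and Benjamini-Hochberg adjustment over 10813 genes. This scale understates changes of low genes. Data were simulated for this comparison, with 10813 genes of which 200 changed. There the fit found 52.2% of log2 changes of 0.5 and 90.0% of log2 changes of 1. False calls averaged 4.6 per simulated set. Whether such rates hold where a library stands apart and genes move together between libraries, as seen here, was not tested. They are therefore no measure of the power or the false calls of the real comparison. Replicates are samples the labels call biological. The limma p-values set the difference between groups against the spread between replicates, estimated with the help of all genes. A batch shared by a whole group would not enter that spread.

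Members and lists were chosen with earlier results of these data known. Values per library were given for the member with the highest mean and with the lowest p in each role, for members whose groups did not overlap, and for the 3 largest and 3 smallest log2 fold changes. CDC25C, KIF11, SPC25 and the ratios were added after their values were seen. Alternatives were another pseudocount, 2 other filters, no trend and robust settings, array weights, median centring, a replicate block and each library left out. Removal of length and GC trends and voom on the recovered reads were added after the data were seen.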

Additional observations from a re-analysis of the deposited data

How the results depend on the processing

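The number of genes past the adjusted p depended on the settings more than the members did. It was 14 as reported, 0 with no trend and no robust setting, 0 with libraries centred on their medians, 1195 with array weights (which gave knockdown library 1 a weight of 0.188), 48 with the length and GC trend removed and 52 with the length trend removed, and 0 to 256 with 1 library left out (256 without knockdown library 1, 5 without knockdown library 3, 0 without any of the other 4). Beside these counts of 0 stood 1168, 1163 and 696 to 823 genes at an unadjusted limma p under 0.05. The number of members past the adjusted p was 0 in every setting run except array weights. There it was 8 of 57 (WEE1, CDC25B, CDC25C, TTK, NDC80, NUF2, SPC25 and KIF15), beside 1195 of 10813 genes in all. The largest weights in that fit went to knockdown library 2 (3.75) and control library 3 (2.92). Same-numbered libraries did not deviate together (correlations of -0.34, -0.47 and -0.12), and the main fit was unpaired. With 3 libraries a group and knockdown library 1 apart, these correlations cannot show whether same-numbered samples were handled together. A fit with the replicate block called 1 gene and 0 members.

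The number of members with a negative log2 fold change was 33 to 57 with 1 library left out (33 without knockdown library 1), and their median -0.28 to -0.027, being -0.10 without control library 1. Members at an unadjusted p under 0.05 numbered 0 without control library 1 (6.45% of all genes, in either direction) and 18 without knockdown library 3 (16.9%, likewise in either direction). With array weights the log2 fold change changed sign for CKS2 (0.072), GTSE1 (0.051), BIRC5 (0.050), CDC20 (0.048), CDCA3 (0.092) and TACC3 (0.022). With the GC trend removed it did so for CCNB1 (0.0094), CKS2 (0.058) and RACGAP1 (0.0016), and with length and GC removed for CCNB1 (0.010) and CKS2 (0.031).

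With 1 library left out the log2 fold change crossed 0 in 24 members, whose lowest and highest values were as follows: ANLN (-0.39 to 0.00051), ASPM (-0.56 to 0.0813), AURKA (-0.21 to 0.0131), BIRC5 (-0.14 to 0.0941), BUB1 (-0.29 to 0.0183), BUB1B (-0.31 to 0.0164), CCNB1 (-0.13 to 0.0343), CDC20 (-0.18 to 0.0732), CDCA3 (-0.17 to 0.12), CENPF (-0.63 to 0.0836), CKS2 (-0.0911 to 0.0775), DLGAP5 (-0.33 to 0.0466), GTSE1 (-0.17 to 0.11), INCENP (-0.24 to 0.0348), KIF11 (-0.36 to 0.0599), KIF14 (-0.53 to 0.0958), KIF20B (-0.44 to 0.0643), MKI67 (-0.58 to 0.0848), NCAPD2 (-0.14 to 0.0636), NCAPG (-0.33 to 0.0461), RACGAP1 (-0.0833 to 0.0185), SMC4 (-0.33 to 0.11), TACC3 (-0.18 to 0.0716) and TPX2 (-0.20 to 0.0259).

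With 3 libraries a group, a whole group of correlated genes and a single low library, differences of the size seen here were not separable from the spread between libraries. The means of knockdown and the normalising read total behind the FPKM values are uncertain, and mRNA length was that of 1 annotated transcript.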
